A study of Mus musculus with 6 samples.

Results

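The AP-1 and immediate early factors followed here are 10 mouse genes, namely the FOS-family genes Fos, Fosb and Fosl2, the JUN-family genes Jun, Junb and Jund, and the response genes Egr1, Ier2, Ier3 and Dusp1. They were taken from a table of 55416 genes by matching Ensembl identifiers to these symbols, and all 10 were found and passed the filter on low counts. Expression was measured by RNA sequencing in MB21, a mouse medulloblastoma line recorded as ptch mutant, grown without attachment in medium with the B27 supplement. The 3 DS38 libraries came from cells given DS-1-38, a derivative of benzarone, at 10 uM for 1 day, and the 3 DMSO libraries from cells given the vehicle for 1 day. Both groups share the line, its ptch mutation and the medium. The parent compound, benzarone, inhibits the phosphatase activity of EYA proteins, and loss of the receptor Ptch leaves hedgehog signalling unrestrained.

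AP-1 is a transcription factor made of pairs of basic leucine zipper proteins. JUN proteins can pair with each other or with FOS proteins, and FOS proteins need a JUN partner. Immediate early genes are those that growth factors, calcium entry or stress switch on within minutes without new protein synthesis, through SRF with its ternary complex partners and through CREB, and their messages are short-lived. In neurons and granule cell progenitors they are widely used as a record of recent signalling. A sample taken after 1 day does not read the first burst, and a single time point does not show how long a level had held.

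The response of the 10 genes was mixed. After 1 day of DS38, Fosb, Junb, Ier2 and Jund rose and Fosl2 fell, while Fos, Jun, Egr1, Ier3 and Dusp1 did not pass the test. Fosb had the largest rise, to 1.82 times its DMSO level, and Junb followed at 1.45 times. The changes of Ier2 (1.22 times), Jund (1.13 times) and Fosl2 (0.892 times) were smaller. A gene passed where edgeR's quasi-likelihood test gave an adjusted p under 0.05 over all 17679 genes tested. By that rule 4 of 10 members were higher in DS38, where 12.9% of all tested genes were higher, and 1 of 10 was lower, where 11.7% were lower. In either direction 24.5% of tested genes passed. The median log2 fold change was 0.02 over the members and 0.004 over all tested genes, and the list as such was not tested.

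Library totals were 60434089 to 84044428 counts in DS38 and 38840296 to 50014681 in DMSO, so every DS38 library was deeper. All pairs of libraries within a group differed by more than sampling noise. The chi-square was 2.41 to 2.84 times its degrees of freedom between DS38 libraries and 5.91 to 6.49 times between DMSO libraries. DMSO replicate 3 stood apart on the second principal component, which held 22.2% of the variance. Leaving it out ended no call among the members: Fosb, Junb, Ier2, Jund and Fosl2 then had log2 fold changes of 0.87, 0.62, 0.28, 0.18 and -0.17. Markers of granule progenitors and of this tumour were abundant, with a summed level of 3226 to 3256 CPM (counts scaled to a common library size) in DS38 and 3253 to 3346 CPM in DMSO over 15 genes. Within that sum 3 of the 15 rose and 7 fell, where 12.9% of all tested genes rose and 11.7% fell. Atoh1, the defining factor of granule progenitors, rose by 0.33 ± 0.028 on the log2 scale (SE). Neurod1, a factor of neuronal differentiation, and Hhip, a hedgehog target, fell by 0.37 ± 0.036 and 0.35 ± 0.035. Barhl1 and Meis1 rose as well (log2 fold changes 0.27 and 0.11). Ptch1 (-0.19), Gli2 (-0.16), Gli1 (-0.15), Zic2 (-0.14) and Zic1 (-0.10) also fell, and the remaining 5 of the 15 did not pass. Of 12 microglia and macrophage markers 6, among them Tyrobp, Trem2 and Itgam, had 0 counts in all libraries, and the list summed to 0.359 to 0.426 CPM in DS38 and 0.270 to 0.646 CPM in DMSO. Endothelial markers summed to 1.14 to 1.37 CPM in DS38 and 1.06 to 1.45 CPM in DMSO, with Kdr and Cldn5 at 0. Fibroblast and pericyte markers summed to 6.48 to 7.24 CPM in DS38 and 5.53 to 6.75 CPM in DMSO, with Kcnj8 alone at 3.89 and 3.90 CPM. In that list the collagen gene Col1a1 rose, to 0.822 CPM in DS38 against 0.373 CPM in DMSO (log2 fold change 1.16 ± 0.330). The oligodendrocyte list summed to 103.6 to 105.4 CPM in DS38 and 101.9 to 102.3 CPM in DMSO, and Olig1 rose by 0.20 ± 0.052 on the log2 scale. Most of that sum was Pdgfra (70.0 CPM in DS38 and 71.5 CPM in DMSO) and Olig1 (22.8 and 19.9 CPM). Mag had 0 counts and Sox10 12 counts in all libraries together. The astrocyte list moved with the group, at 508 to 515 CPM in DS38 and 579 to 605 CPM in DMSO over 9 genes, although its markers Aqp4 and Gja1 had 3 counts each in all libraries together. Within it Gfap rose by 0.32 ± 0.096 and Slc1a2 and Sox9 fell by 0.31 ± 0.030 and 0.18 ± 0.031 on the log2 scale (SE). The part of these marker changes in the results for the members was not tested. In bulk RNA, fewer cells of a type and less RNA per cell cannot be told apart.

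Promoter sequences are shown for Fosb beside Fos and Junb beside Jun, relatives that moved unequally. Jund beside Jun also moved unequally. Fosl2 passed the test and Fos did not, but the ratio of Fosl2 to Fos overlapped between the groups. The windows of Jund and Fosl2 were searched without being printed. RefSeq windows of 300 bases, 250 before the gene's start and 50 after it, were matched for 8 of 10 members on build GRCm38.p6, an older build than that of the counts. Ier2 and Egr1 were not matched. Capitals mark the letters found by a search for the cyclic AMP response element TGACGTCA, its core TGACGT, the AP-1 site TGANTCA, the variant TGACATCA known from the human JUN promoter, the TATA box TATAAA and the SRF-binding CArG box. Both strands were searched, and every TGACGTCA also counts as a core.
Fosb, chr7:19309996-19310295, minus strand: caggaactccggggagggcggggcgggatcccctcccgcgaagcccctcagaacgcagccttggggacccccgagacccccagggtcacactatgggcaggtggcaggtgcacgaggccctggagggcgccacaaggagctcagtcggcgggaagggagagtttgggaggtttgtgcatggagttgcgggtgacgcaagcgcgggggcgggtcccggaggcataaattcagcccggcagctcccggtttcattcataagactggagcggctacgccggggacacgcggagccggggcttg
Fos, chr12:85473640-85473939, plus strand: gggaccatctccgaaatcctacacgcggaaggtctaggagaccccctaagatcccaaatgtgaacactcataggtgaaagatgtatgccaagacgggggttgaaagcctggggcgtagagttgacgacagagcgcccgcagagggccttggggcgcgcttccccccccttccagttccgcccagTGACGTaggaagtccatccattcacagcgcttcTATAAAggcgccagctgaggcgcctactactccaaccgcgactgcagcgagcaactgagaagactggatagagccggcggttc
Junb, chr8:84978699-84978998, minus strand: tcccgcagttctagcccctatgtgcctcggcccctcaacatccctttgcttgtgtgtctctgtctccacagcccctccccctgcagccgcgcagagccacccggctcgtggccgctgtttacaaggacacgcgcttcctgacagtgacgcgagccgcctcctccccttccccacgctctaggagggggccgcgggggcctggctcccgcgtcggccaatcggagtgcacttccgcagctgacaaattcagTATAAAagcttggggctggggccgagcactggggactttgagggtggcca
Jun, chr4:95052173-95052472, minus strand: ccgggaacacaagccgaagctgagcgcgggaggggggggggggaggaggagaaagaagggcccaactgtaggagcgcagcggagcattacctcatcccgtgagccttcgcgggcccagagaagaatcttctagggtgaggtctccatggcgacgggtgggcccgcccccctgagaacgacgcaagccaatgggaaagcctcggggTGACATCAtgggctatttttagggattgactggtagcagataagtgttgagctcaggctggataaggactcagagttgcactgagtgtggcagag
The Fosb window held none of these letters. Fos had the core TGACGT with its first base at -66 and TATAAA at -33, counted from the RefSeq start. Junb had TATAAA beginning at position 1, and the nearest transcript start of the GENCODE annotation lies 30 bases from the RefSeq start there. Jun had TGACATCA at -45. Among the other windows, Dusp1 held a full TGACGTCA at -143 and a further core at -191, and those of Fosl2, Jund and Ier3 had no match. The RefSeq starts of Fosl2 and Jund lie 299 and 1210 bases from the nearest GENCODE start. No member's window held TGANTCA or the CArG box. Of all 32851 windows in the table, 1.79% held TGACGTCA, 7.51% the core, 7.81% TGANTCA, 3.62% TGACATCA, 13.6% TATAAA and 1.63% the CArG box. A match is a description of letters, not of binding, and the absence of one covers these windows alone.

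**Figure D1:**
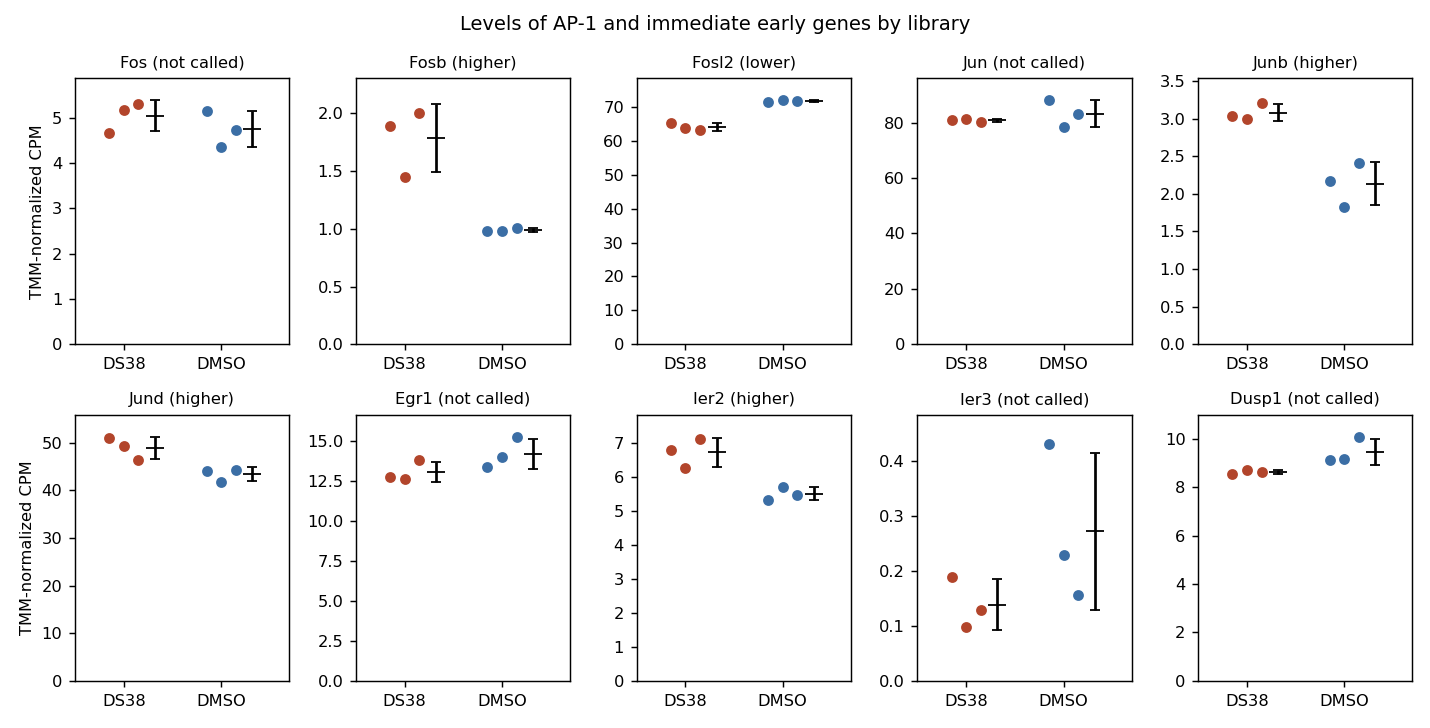
TMM-normalized CPM of each of the 10 genes in the 3 DS38 and 3 DMSO libraries, with points from left to right for replicates 1 to 3 and a bar for the mean ± SD beside each group; each axis starts at 0. The DS38 points of Fosb, Junb, Jund and Ier2 all lie above the DMSO points, and those of Fosl2 and Dusp1 all lie below.

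Levels are given as CPM after TMM scaling, a method that removes differences in library composition. Fosb, which encodes a FOS protein best known from neurons under repeated stimulation, was at 1.89, 1.45 and 2.01 CPM in DS38 replicates 1 to 3, against 0.983, 0.978 and 1.01 CPM in DMSO replicates 1 to 3. Every DS38 library was above every DMSO library, and the DS38 libraries spread more widely than the DMSO ones. The means were 1.78 ± 0.294 CPM in DS38 and 0.989 ± 0.0165 CPM in DMSO (SD, n = 3 each), which is 0.86 ± 0.181 on the log2 scale (SE; adjusted p = 0.001243 by edgeR). These levels rest on 89 to 171 reads in DS38 and 39 to 48 in DMSO. Counts this low vary through sampling alone, so the narrow spread in DMSO is not read as a difference in variability between the groups. The table counts reads per gene, so the full-length and the truncated deltaFosB transcripts cannot be told apart.

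Fos, the founding FOS gene, was at 4.66, 5.17 and 5.29 CPM in DS38 and 5.14, 4.35 and 4.73 CPM in DMSO. The groups overlapped, and the log2 fold change was 0.09 ± 0.099 with a 95% interval of -0.12 to 0.29 (edgeR adjusted p = 0.559). Fosl2 encodes FRA-2, a FOS protein without the strong activation domain of FOS and FOSB. It was at 65.3, 63.8 and 63.2 CPM in DS38, against 71.6, 72.2 and 71.9 CPM in DMSO. The groups were close within themselves and did not overlap, and the log2 difference was -0.17 ± 0.032 (SE; adjusted p = 0.0006232 by edgeR).

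Among the JUN genes, Junb, whose product pairs with FOS proteins and often opposes JUN in proliferation, was at 3.03, 3.001 and 3.205 CPM in DS38, against 2.17, 1.83 and 2.404 CPM in DMSO. All DS38 libraries were higher than all DMSO libraries. The means were 3.08 ± 0.110 CPM in DS38 and 2.135 ± 0.289 CPM in DMSO (SD, n = 3 each), a difference of 0.54 ± 0.131 on the log2 scale (SE; adjusted p = 0.004076 by edgeR). In the GENCODE M21 annotation 173 exon bases of Junb lie opposite an exon of Prdx2, a peroxiredoxin gene at 152 ± 4.65 CPM in DS38 and 157.5 ± 8.36 CPM in DMSO. Prdx2 had a log2 fold change of -0.05 ± 0.035. Reads in the shared bases cannot be told apart if strand was not counted. That limit would extend to the level of Junb per length, its share and its ratio to Jun.

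Jund, the JUN gene with the steadiest expression in most cells, was at 50.9, 49.4 and 46.4 CPM in DS38, against 44.2, 41.7 and 44.3 CPM in DMSO. The groups did not overlap, and Jund rose by 0.17 ± 0.041 on the log2 scale (SE; adjusted p = 0.003724 by edgeR). The antisense gene Gm11175 lies wholly within 877 exon bases of Jund and had 0 counts in all 6 libraries. If strand was not counted, reads in these bases cannot be told apart, and the 0 then does not show that Gm11175 was silent. The level of Jund per length, its share and its ratio to Jun would carry the same limit. Jun itself, the main JUN protein in stress signalling and a substrate of the JNK kinases, was at 81.001, 81.3 and 80.2 CPM in DS38 and 88.3, 78.5 and 82.99 CPM in DMSO. The groups overlapped, and the log2 fold change was -0.04 ± 0.037 with a 95% interval of -0.12 to 0.03 (edgeR adjusted p = 0.4275). Its sign turned without DMSO replicate 1, to 0.003. The antisense gene Junos shares 232 exon bases with Jun and was at 0.807 CPM in DS38 and 0.795 CPM in DMSO.

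Egr1, a zinc finger factor induced through SRF by ERK signalling, was at 12.7, 12.6 and 13.8 CPM in DS38 and 13.4, 13.96 and 15.2 CPM in DMSO. The ranges overlapped, and the log2 fold change of -0.11 ± 0.064 did not pass (95% interval -0.25 to 0.02; edgeR adjusted p = 0.2057). Ier2, an immediate early nuclear protein, was at 6.81, 6.28 and 7.11 CPM in DS38, against 5.34, 5.72 and 5.48 CPM in DMSO. Its groups did not overlap, and it rose by 0.29 ± 0.086 on the log2 scale (SE; adjusted p = 0.01515 by edgeR). The call was lost without DS38 replicate 3 (edgeR adjusted p = 0.07548) and without DMSO replicate 1 (edgeR adjusted p = 0.05759), with log2 fold changes of 0.25 and 0.27.

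Dusp1 encodes a nuclear phosphatase that switches off MAP kinases. It was at 8.54, 8.71 and 8.62 CPM in DS38, against 9.13, 9.15 and 10.1 CPM in DMSO. All DS38 libraries were below all DMSO libraries, yet the log2 fold change of -0.13 ± 0.071 did not pass (95% interval -0.28 to 0.02; edgeR adjusted p = 0.1984). Ier3, a regulator of survival and ERK signalling, was barely counted, with 15, 6 and 11 reads in DS38 and 21, 11 and 6 reads in DMSO. Its log2 fold change of -0.97 ± 0.454 had the widest interval among the 10 members, -1.91 to -0.03, and did not pass (edgeR adjusted p = 0.1273). It was -0.47 without DMSO replicate 1. Over the 10 members, the libraries of the groups did not overlap for 6 genes, 4 of them higher and 2 lower in DS38; over all tested genes this held for 38.6%, 20.7% higher and 17.9% lower.

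**Figure D2:**
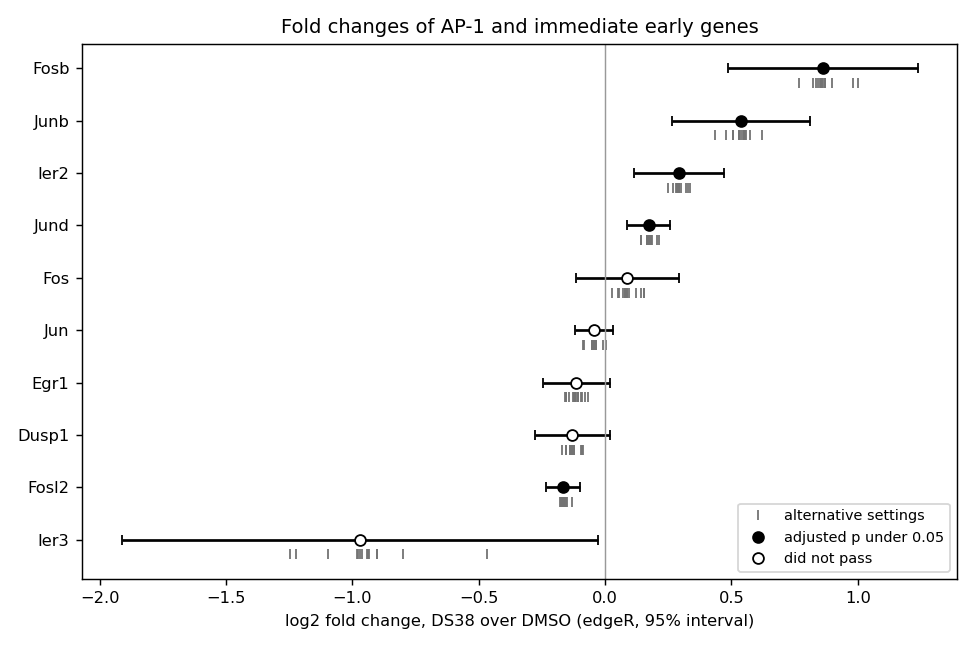
Log2 fold change of DS38 over DMSO for each of the 10 genes (x axis), from edgeR, with 95% intervals, filled where the adjusted p was under 0.05 and open where it was not; grey ticks under each point are the values under the alternative settings. Fosb (0.86), Junb (0.54), Ier2 (0.29) and Jund (0.17) are filled above 0 and Fosl2 (-0.17) below it, while the interval of Ier3 is far wider than the rest.

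Levels of different genes are compared per kilobase of the deposited gene length, which counts all annotated exons and so understates genes with several transcript ends. In DS38, Jund (29.3 ± 1.39 CPM per kilobase) and Jun (25.3 ± 0.186) led the 10 genes (SD, n = 3 each). Fosl2 (6.62 ± 0.115), Ier2 (4.42 ± 0.277), Egr1 (2.91 ± 0.144), Dusp1 (2.604 ± 0.0259), Fos (2.14 ± 0.142) and Junb (1.34 ± 0.0476) followed. Fosb (0.286 ± 0.0470) and Ier3 (0.122 ± 0.0405) were lowest, and no neighbours in this order overlapped between libraries. In DMSO, Jun (26.1 ± 1.55 CPM per kilobase) and Jund (26.03 ± 0.878) overlapped at the top, and so did Egr1 (3.16 ± 0.210) with Dusp1 (2.86 ± 0.164). Ier3 (0.240 ± 0.126) overlapped with Fosb (0.158 ± 0.00264) at the bottom. Apart from these places at the top and bottom, the order of levels was the same in both groups. Jun and Jund stood above 88.1% and 89.0% of tested genes in level per length, Fos above 40.6% and Fosb above 12.4%.

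The make-up of each family gives a view that does not depend on the scaling of libraries. Within the FOS genes, Fosb made up 3.15 ± 0.509% of the counts per length in DS38 and 1.65 ± 0.0357% in DMSO (SD, n = 3 each), with Fosl1 included in the sum. Fosl2 made up 73.05 ± 1.39% in DS38 and 77.2 ± 1.43% in DMSO, and Fos 23.6 ± 1.54% in DS38 and 20.9 ± 1.45% in DMSO. The libraries of the groups did not overlap for the shares of Fosb and Fosl2. The narrow spread of the Fosb share in DMSO rests on the same few reads as its level. Within the JUN genes, Junb made up 2.39 ± 0.148% in DS38 and 1.75 ± 0.188% in DMSO, Jund 52.4 ± 1.09% in DS38 and 49.1 ± 0.888% in DMSO, and Jun 45.3 ± 0.951% in DS38 and 49.2 ± 0.930% in DMSO. All 3 JUN shares were apart between the groups. The shares of a family sum to the whole, so they are not separate results, and the level of Jun itself overlapped between the groups. The genes with the largest rises, Fosb and Junb, were also the least abundant of their families among those tested.

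The ratio of Fosb to Fos per length was 0.153, 0.106 and 0.143 in DS38, against 0.0720, 0.0847 and 0.0803 in DMSO. The ratio of Junb to Jun was 0.0519, 0.0511 and 0.0554 in DS38, against 0.0340, 0.0323 and 0.0402 in DMSO. Both ratios were higher in every DS38 library, by 0.75 and 0.58 on the log2 scale. The ratio of Jund to Jun averaged 1.16 ± 0.0482 in DS38 and 0.998 ± 0.0364 in DMSO (SD, n = 3 each), and that of Ier2 to Egr1 1.52 ± 0.0545 in DS38 and 1.15 ± 0.0773 in DMSO. Each of these 4 ratios had an exact permutation p of 0.1 (two-sided), the smallest that 3 libraries against 3 allow. After Benjamini-Hochberg adjustment over 5 ratios it was 0.125. All 5 ratios set a member that passed over one that did not, in the same counts, so they add no independent support. The ratio of Fosl2 to Fos, 3.10 ± 0.268 in DS38 and 3.704 ± 0.325 in DMSO, overlapped between the groups (exact permutation p = 0.2). Summed per length, the FOS genes were at 9.05 ± 0.0422 CPM per kilobase in DS38 and 9.599 ± 0.138 in DMSO (exact permutation p = 0.1). The JUN genes summed to 56.02 ± 1.501 in DS38 and 53.07 ± 2.41 in DMSO (exact permutation p = 0.2).

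**Figure D3:**
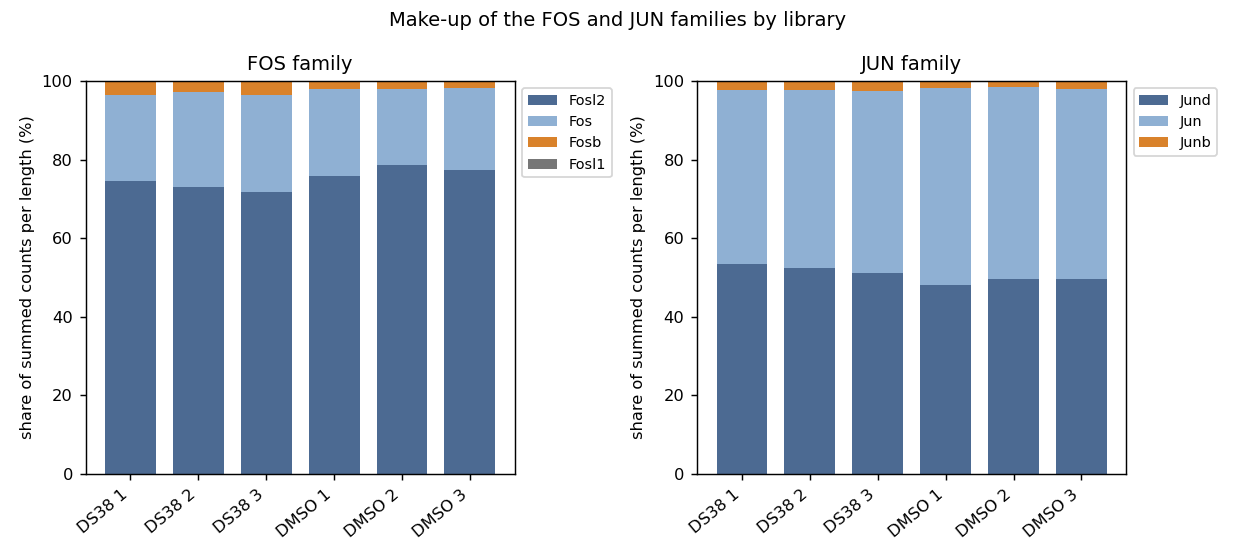
Share of each gene in the summed counts per length of the FOS family (left) and the JUN family (right), in percent, for each of the 3 DS38 and 3 DMSO libraries. The Fosb layer is 2.57% to 3.53% in DS38 and 1.61% to 1.68% in DMSO, and the share of Jund exceeds that of Jun in all 3 DS38 libraries and in DMSO replicates 2 and 3.

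Other genes that can form AP-1 or related pairs moved unequally as well. Of 14 fixed, 12 were tested, 3 rose and 1 fell (against 12.9% and 11.7% of all tested genes), with a median log2 fold change of 0.12. Atf3, a stress-induced partner of JUN proteins, was at 5.17, 5.58 and 5.36 CPM in DS38, against 3.32, 3.704 and 3.46 CPM in DMSO, a rise of 0.62 ± 0.099 on the log2 scale (SE; adjusted p = 8.971e-05 by edgeR). Jdp2, a repressive JUN partner, rose by 0.18 ± 0.0505 and Mafg, a small MAF protein, by 0.13 ± 0.033 on the log2 scale. Both missed the threshold without DS38 replicate 2 (edgeR adjusted p = 0.06801 and 0.05083), and Jdp2 also without DMSO replicate 1 (0.06898). Atf7 had the one fall, by 0.12 ± 0.037. It was lost without DS38 replicate 2 or 3 or DMSO replicate 1 or 2 (edgeR adjusted p of 0.05676 to 0.1006), under scaling by library size alone (0.07778) and after correction for length (0.05850). Fosl1, with 12 counts in all libraries together, and Batf, with 6, were not tested.

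Of 40 other immediate early genes 37 were tested, 2 rose and 7 fell, where 12.9% of all tested genes rose and 11.7% fell, with a median log2 fold change of 0.03. Nr4a3, an orphan nuclear receptor induced by calcium and cyclic AMP, was at 3.41, 3.36 and 3.45 CPM in DS38, against 2.23, 1.44 and 2.20 CPM in DMSO (log2 fold change 0.81 ± 0.144, SE; adjusted p = 0.0002505 by edgeR). Dusp5, a nuclear phosphatase of ERK, rose by 0.21 ± 0.038. Dusp6 and Dusp4, which also encode MAP kinase phosphatases, fell by 0.26 ± 0.041 and 0.30 ± 0.051, and Homer1, a postsynaptic scaffold gene with an activity-induced short form, by 0.19 ± 0.031. Btg2, an antiproliferative gene, fell by 0.22 ± 0.028. Close relatives thus differed here too: Nr4a1 (log2 fold change 0.20 ± 0.112) did not pass and Nr4a2 fell by 0.15 ± 0.043. The activity-induced gene Arc was at 1.078 CPM in DS38 and 1.077 CPM in DMSO, and Egr2, Egr3, Npas4 and Myc did not pass. Nr4a1, Nr4a2, Arc, Egr2, Egr3, Npas4 and Myc were named after their values were seen.

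Of 17 genes for SRF, ternary complex, CREB and MEF2 factors and their cofactors, 1 rose and 5 fell, beside 12.9% and 11.7% of all tested genes. Their action on the members' promoters was not measured. The ternary complex factor gene Elk3 rose by 0.31 ± 0.064, and its relative Elk4 fell by 0.21 ± 0.032 on the log2 scale (SE). The acetyltransferase genes Crebbp and Ep300, whose products CREB recruits, fell by 0.22 ± 0.037 and 0.25 ± 0.045, and Mrtfb, an SRF coactivator, by 0.15 ± 0.038. Of 25 MAP kinase cascade genes matched and tested, 5 rose and 3 fell, where 12.9% of all tested genes rose and 11.7% fell, so the number that fell is near the background. Rps6ka2, a kinase activated by ERK, rose by 0.36 ± 0.044 and Mapk3, which encodes ERK1, by 0.21 ± 0.039. Rps6ka1 and Map2k3 rose by 0.18 ± 0.055 and 0.14 ± 0.042. Rps6ka1 was lost with the length correction and without DS38 replicate 2 or 3 or DMSO replicate 2 (edgeR adjusted p of 0.05344 to 0.1125). Map2k3 was lost in 6 of 16 alternatives (edgeR adjusted p of 0.05047 to 0.1180). Map2k7, an activator of JNK, fell by 0.27 ± 0.047, Rps6ka3 by 0.16 ± 0.036 and Map2k6, an activator of p38, by 0.11 ± 0.032. The last call was lost with library size alone (edgeR adjusted p = 0.1029), without DS38 replicate 1 (0.1259) and without DMSO replicate 2 (0.05752).

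**Figure D4:**
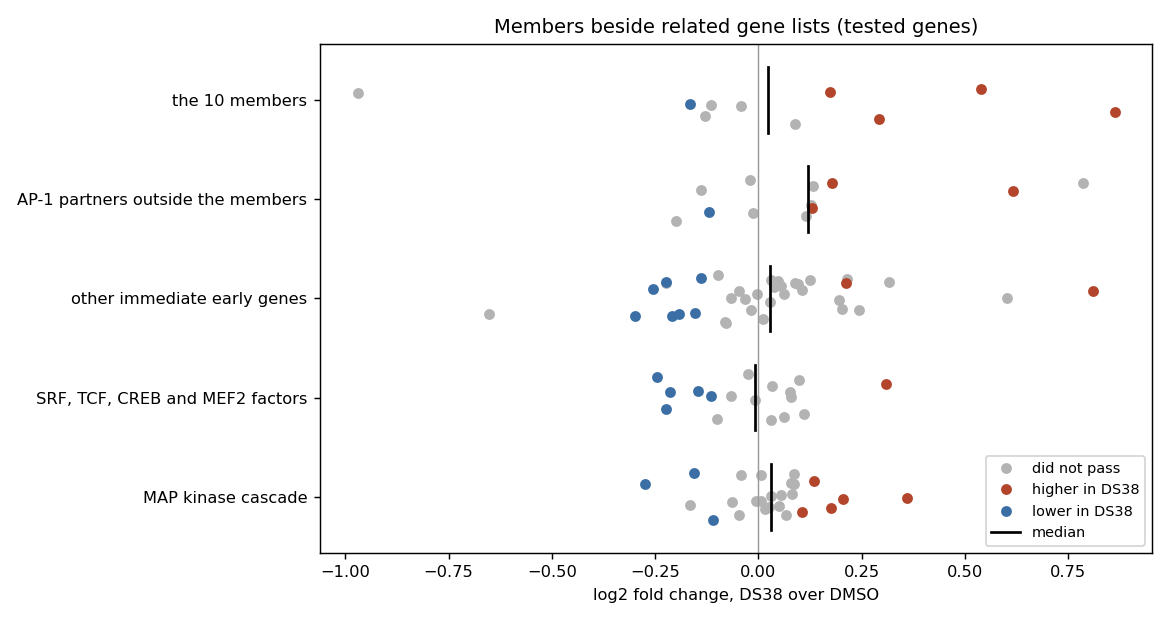
Log2 fold change of DS38 over DMSO (x axis) for every tested gene of the 10 members and 4 related lists, with a point per gene, red where higher and blue where lower at an adjusted p under 0.05, grey where it did not pass, and a black line at each list's median. Points are shifted up and down within a row only to separate them; the medians lie between -0.01 and 0.12, and each row holds both red and blue points.

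The genes whose log2 CPM followed a member most closely over the 6 libraries were sought among 9977 genes with at least 5 CPM on average. For Fos these were Hdac2 (r = 0.996), Zmym5 (r = 0.984) and Vps26a (r = 0.977). For Jun they were Proser1 (r = 0.981), Atat1 (r = 0.972) and Fam49b (r = 0.969), and for Egr1 Pik3cb (r = 0.969), Armcx5 (r = 0.967) and Rpl30-ps1 (r = 0.965). The last is a pseudogene whose reads may come from near-identical copies. These are descriptions over 6 libraries that share 2 groups, chosen as the highest of many.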

How the data were processed

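RNA was counted in 3 DS38 and 3 DMSO libraries of MB21 cells, prepared by column extraction and an automated mRNA library kit, per the labels' protocols. Treatment lasted 1 day per the titles and treatment protocol, whereas the series' design text names 5 days. The authors deposited whole-number read counts for each gene, beside its length. The submitters' processing notes list STAR 2.7.9a, featureCounts (Subread 2.0.3), edgeR and R 4.1.0, and the builds GRCm39 and GRCh38.p13. How strand and multiply matching reads were treated is not given there. Nothing says that replicates were separate cultures, so the tests cover the spread between these libraries, which may be technical.

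Symbols were matched for 52083 of 55416 identifiers. With R 4.3.3 and edgeR 4.0.16, genes were kept by filterByExpr (minimum count 10, minimum total count 15) and libraries scaled by TMM. DS38 was set against DMSO by the quasi-likelihood test, two-sided, with no term but group, adjusted by Benjamini-Hochberg over 17679 genes, at a threshold of 0.05. The 95% intervals come from the standard error and the degrees of freedom of that test. Simulated data for this comparison left 17384 genes in the fit. Calls were made for 31 of 50 genes with a 1.2-fold change and 32 of 47 with 1.5-fold. With 2-fold 35 of 46 were called, and of unchanged genes 8 of 17194. Far fewer genes were changed in the simulation than passed in the data, and no deviation shared by a whole library was simulated. These rates therefore need not hold for the data. Ratios were tested by exact permutation over libraries. Alternatives were DESeq2 1.42.0, limma-voom (limma 3.58.1), RLE scaling, library size alone, no filter, at least 5 CPM in 3 libraries (the stricter filter), a replicate block, robust dispersion, thinning, a gene length correction and leaving out each library. Figures used Python 3.11.15 and matplotlib 3.10.9.

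The members and gene lists were chosen with earlier results of these data known. Named besides the members were, in each related list, the 4 genes of smallest adjusted p called in each direction, and the 3 genes most like Fos, Jun and Egr1. Of the marker lists, summed levels, some abundant markers, markers at or near 0 and some of the called markers are reported.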

Additional observations from a re-analysis of the deposited data

How the results depend on the processing

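Over 16 alternatives (15 where a stricter filter left the gene out), Fosb and Junb passed in each, with log2 fold changes of 0.77 to 1.002 and 0.44 to 0.62, as did Jund (0.14 to 0.21) and Fosl2 (-0.18 to -0.13). Ier2 passed in 14 of 16. Fos, Jun, Egr1 and Dusp1 passed in none. Ier3 had a value in 14 and an adjusted p in 13, passed in none of these, and ranged from -1.25 to -0.47 when a library was left out. The log2 fold change of Jun changed sign without DMSO replicate 1 and ranged from -0.0857 to 0.0031 when a library was left out. Leaving out a library gave 3 to 4 members higher and 1 lower. With the stricter filter 2 members were higher, since Fosb and Junb were among the 3 not tested. The calls over all genes were 2272 higher and 2068 lower (52.4% higher), and 3289 and 1543 (68.1% higher) with library size alone, which moved the median gene by 0.03.

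Of the AP-1 partners 0 were lower after correction for length or under scaling by library size alone, and 1 to 3 higher and 0 to 1 lower when a library was left out. Of the other immediate early genes 6 were higher with library size alone and 3 with robust dispersion or no filter. Of the SRF, TCF, CREB and MEF2 factors 2 were higher with the length correction, 3 with library size alone and 1 to 2 without a library. Of the MAP kinase genes 9 were higher and 2 lower with library size alone, 3 were higher after thinning or correction for length, and 2 to 5 were higher without a library. Over all genes, 3289 of 17679 were higher and 1543 lower with library size alone, and 1952 and 2396 with the length correction. After thinning 1993 of 16721 were higher and 1893 lower, and with robust dispersion 2313 and 2074 of 17679. With no filter 2413 of 32369 were higher and 2031 lower, and without a library 1640 to 2437 higher and 1549 to 2474 lower. The list counts are thus not read as results about the lists. Where a number of calls moved other than through genes left out of the test, the cause was not tested.

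Same-numbered DS38 and DMSO libraries did not deviate together (r of 0.03, -0.01 and -0.03 for numbers 1, 2 and 3), so the numbers are not taken as pairs. With the replicate block 4 members were higher and 1 lower, and over all genes 2108 were higher and 1902 lower. Depth limits Ier3, with 70 counts in all libraries together, most. Counts at this depth cannot show changes of its size with precision.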
